A study of Mus musculus with 8 samples.

Results

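The 9 genes described here encode the liver enzymes that build and break down glycogen and the proteins that switch those enzymes: Gyg, Ugp2, Gys2, Gbe1, Pygl, Phka2, Phkg2, Ppp1r3b and Ppp1r3c. They were chosen by name as liver glycogen enzymes and regulators, not by a threshold on measured values, but with earlier results of these data known. All 9 were found among 52636 listed genes and were among the 15562 that had enough counts to be tested. Whole livers of C57BL/6 mice were profiled by RNA sequencing at 8 weeks of age, with 4 samples of each genotype. The cKO samples were Ctcf fl/fl Albcre+, in which both Ctcf alleles are flanked by loxP sites and Cre recombinase is driven by the albumin promoter, a promoter of hepatocytes. The WT samples were Ctcf fl/fl Albcre-, with the same floxed alleles and no Cre, so floxed Ctcf is shared by all samples. No group carried Cre alone, and what Cre does by itself cannot be separated from the loss of CTCF, a DNA-binding zinc finger protein that shapes chromatin loops. Sex, feeding state and time of day are not in the labels.

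Glycogen is the branched glucose store that the liver fills after a meal and empties during fasting. Its chains are started by a primer protein, lengthened by glycogen synthase from UDP-glucose, branched by a branching enzyme, and shortened by glycogen phosphorylase. Phosphorylase kinase activates the phosphorylase, whereas protein phosphatase 1, carried to glycogen by its targeting subunits, turns the phosphorylase off and the synthase on, and glucagon, adrenaline and insulin set the balance between them. Inherited loss of several of these genes in people, among them GYS2, GBE1, PYGL, PHKA2 and PHKG2, causes glycogen storage diseases.

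Libraries held 50.3 to 57.3 M assigned counts in cKO and 43.9 to 50.4 M in WT, a difference in depth that did not pass an exact two-sided permutation test (p = 0.0571, where 4 against 4 can reach 0.0286). Ctcf itself had 12.2 ± 0.95 CPM in cKO and 16.5 ± 0.41 CPM in WT (mean ± SD, n = 4 each), and all 4 cKO libraries lay below all 4 WT libraries (edgeR log2 change -0.44, SE 0.08, adjusted p = 0.00177, adjusted by Benjamini-Hochberg over all tested genes as throughout). In TPM, which are scaled for transcript length and library total, Ctcf overlapped between genotypes, at 4.56 to 5.42 in cKO and 5.34 to 6.04 in WT. CPM are counts scaled to a common library size with TMM factors, which adjust each library for its composition. At an edgeR adjusted p under 0.05, cKO was higher than WT in 2367 genes and lower in 2322, against 3604 and 1318 when libraries were scaled to their size alone, 3194 and 1425 when the 20 most abundant genes were left out of that size, and 3553 and 789 with limma on log2(TPM + 1). Hepatocyte markers summed to 96686 to 109353 CPM in cKO and 86574 to 112555 CPM in WT, with 1 of the 11 tested higher and 6 lower. All 12 stellate cell and fibroblast markers were higher in cKO, with a sum of 308 to 411 CPM in cKO and 136 to 152 CPM in WT. Leukocyte markers summed to 10.2 to 14.1 CPM in cKO and 6.60 to 9.61 CPM in WT, with 3 of 6 higher. Of 8 macrophage and 8 endothelial markers 1 of each was higher, and of 5 tested cholangiocyte markers 2 were higher and 1 lower. These marker counts stand beside 15.2% of all tested genes higher and 14.9% lower. Skeletal muscle markers stayed at or below 0.115 CPM in sum in every library, with Myh4 at 0 throughout. In whole liver, fewer cells of a type and less RNA per cell cannot be told apart.

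Among the 9 genes the branching enzyme Gbe1 and the liver phosphorylase Pygl were higher in cKO, and the catalytic kinase subunit Phkg2 and the phosphatase targeting subunit Ppp1r3c were lower. The primer Gyg, the UDP-glucose enzyme Ugp2, the liver synthase Gys2, the kinase subunit Phka2 and the targeting subunit Ppp1r3b did not pass the test. The calls cover 4 of 9 genes (44.4%), where 30.1% of all tested genes passed (15.2% higher and 14.9% lower). The genotypes did not overlap in CPM for 4 of the 9 (44.4%), namely Gbe1, Gyg, Phkg2 and Ppp1r3c, against 30.6% of all tested genes. The median log2 change, cKO over WT, was 0.17 over the 9 genes and -0.01 over all tested genes, and the median size of the change without its sign was 0.33 and 0.25.

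**Figure D1:**
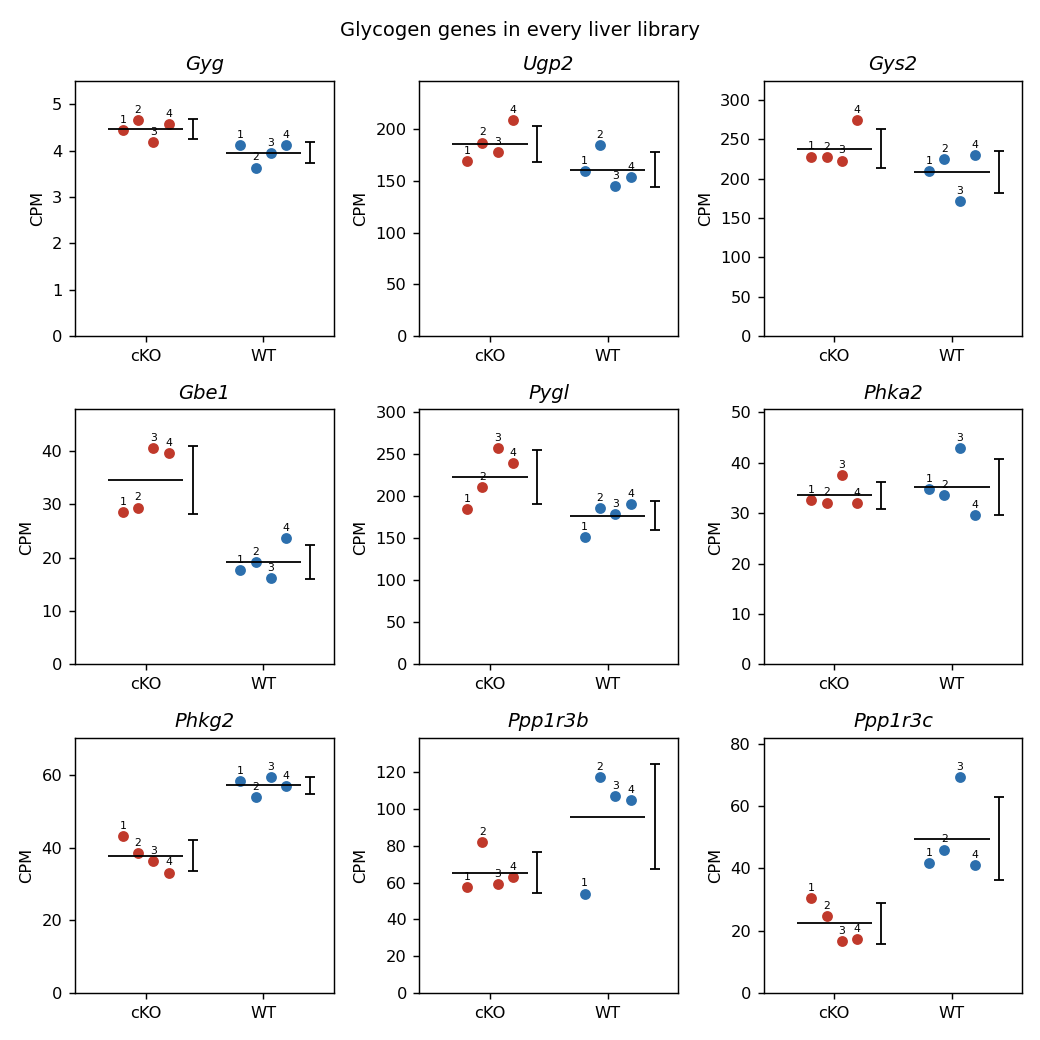
CPM of the 9 glycogen genes in each library, cKO in red and WT in blue, with replicate numbers from the labels. Lines mark means and bars 1 SD (n = 4 each). All cKO points lie above all WT points for Gbe1 and Gyg and below them for Phkg2 and Ppp1r3c, and WT replicate 1 lies apart in Ppp1r3b.

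The start regions of the 4 genes that passed are shown for the short motifs they hold, as sequence context for the changes reported below. Each runs from 250 bases before to 50 bases after the RefSeq start site (GRCm38.p6, the assembly called mm10), on the strand of the gene from 5′ to 3′. Capitals mark CACGTG (the E-box of clock and other helix-loop-helix factors), AGGNGGC (the centre of the CTCF consensus) and CCAAT (the CCAAT box), searched on both strands.
Gbe1, chr16:70313699-70313998, plus strand: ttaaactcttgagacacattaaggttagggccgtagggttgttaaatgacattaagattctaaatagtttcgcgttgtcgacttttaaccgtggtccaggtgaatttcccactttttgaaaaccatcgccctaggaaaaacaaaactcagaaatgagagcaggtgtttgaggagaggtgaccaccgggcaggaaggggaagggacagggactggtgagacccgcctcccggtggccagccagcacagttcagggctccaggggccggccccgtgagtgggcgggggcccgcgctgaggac
Pygl, chr12:70227634-70227933, minus strand: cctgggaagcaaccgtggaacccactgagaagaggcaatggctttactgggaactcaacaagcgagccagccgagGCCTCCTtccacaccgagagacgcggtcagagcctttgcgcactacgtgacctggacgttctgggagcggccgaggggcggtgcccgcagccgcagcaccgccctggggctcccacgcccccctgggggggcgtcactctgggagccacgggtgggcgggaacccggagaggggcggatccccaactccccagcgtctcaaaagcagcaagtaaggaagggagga
Phkg2, chr7:127573098-127573397, plus strand: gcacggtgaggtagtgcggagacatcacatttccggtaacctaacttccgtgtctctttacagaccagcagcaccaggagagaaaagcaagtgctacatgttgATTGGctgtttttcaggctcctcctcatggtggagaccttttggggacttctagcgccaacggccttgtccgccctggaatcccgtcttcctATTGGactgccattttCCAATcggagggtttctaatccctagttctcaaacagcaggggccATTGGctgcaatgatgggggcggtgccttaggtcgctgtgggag
Ppp1r3c, chr19:36736555-36736854, minus strand: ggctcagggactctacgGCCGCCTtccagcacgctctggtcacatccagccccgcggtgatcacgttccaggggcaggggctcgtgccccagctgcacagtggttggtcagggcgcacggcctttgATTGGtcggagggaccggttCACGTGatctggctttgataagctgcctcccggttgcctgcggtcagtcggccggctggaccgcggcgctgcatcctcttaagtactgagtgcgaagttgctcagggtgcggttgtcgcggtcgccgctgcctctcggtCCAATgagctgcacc
The Gbe1 window held none of the 3 marked motifs. Pygl held AGGNGGC once, beginning at -175 from the start site. Phkg2 held CCAAT 4 times, at -147, -55, -39 and 6. Ppp1r3c held CACGTG at -104, AGGNGGC at -233 and CCAAT at -124 and 35, and no 2 of these matches overlapped. Over 32851 RefSeq promoters of the same length, 7.15% held CACGTG, 29.4% AGGNGGC and 37.4% CCAAT. Of the 7 members with a promoter in the table, 2 held CACGTG (Gyg and Ppp1r3c), 5 held AGGNGGC (Gyg, Phka2, Ppp1r3c, Pygl and Ugp2) and 3 held CCAAT (Phkg2, Ppp1r3c and Ugp2). Ugp2 had 2 promoters there and was counted if either held the motif, whereas the percentages are per promoter. The GC box GGGCGG was found in 6 of the 7 members, all but Ppp1r3c, and in 35.7% of all promoters. The short cAMP response element TGACG was found in Gyg and Pygl and in 20.8% of all promoters. TATAAA, TGACGTCA and TGTTTAC, found in 13.6%, 1.79% and 3.65% of all promoters, were in none of the 7. Gys2 and Ppp1r3b were not in the promoter table.

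Of Gyg, Ugp2, Gys2 and Gbe1, which make glycogen, the branching enzyme Gbe1 alone passed the test. Gyg (ENSMUSG00000019528, GRCm38 chromosome 3, 20122083 to 20155117) encodes glycogenin, the protein on which a new glycogen chain is started. It had 4.44, 4.66, 4.18 and 4.57 CPM in cKO replicates 1 to 4, against 4.12, 3.63, 3.94 and 4.12 CPM in WT replicates 1 to 4. The genotypes did not overlap, by a margin of under 0.1 CPM, and the log2 change of 0.17 (SE 0.11) missed the threshold (edgeR adjusted p = 0.245). On log2(TPM + 1) with limma, whose TPM carry no TMM scaling, Gyg passed, with a log2 change of 0.28 (adjusted p = 0.0157).

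Ugp2 (ENSMUSG00000001891, chromosome 11, 21321126 to 21371267) encodes UDP-glucose pyrophosphorylase, which makes the glucose donor of the synthase. It stood at 169, 187, 178 and 209 CPM in cKO and 159.9, 185, 145 and 154 CPM in WT. WT replicate 2 lay above cKO replicates 1 and 3, so the genotypes overlapped. The log2 change was 0.21 (SE 0.09, edgeR adjusted p = 0.110), and without WT replicate 2 it was 0.28 (adjusted p = 0.0460). With libraries scaled to their size alone Ugp2 passed at 0.31 (adjusted p = 0.0215), where the median of all tested genes was 0.10. With an offset for effective length it was 0.10 (adjusted p = 0.464), and without cKO replicate 4 it was 0.15 (adjusted p = 0.281). It shares 8 bases with Vps54, whose log2 change of 0.12 missed the threshold (edgeR adjusted p = 0.296).

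Gys2 (ENSMUSG00000030244, chromosome 6, 142422612 to 142473130) encodes the liver glycogen synthase, which adds glucose to the growing chain. Its levels were 228, 227, 223 and 274 CPM in cKO and 209, 224, 171 and 229 CPM in WT. cKO replicate 4 was the highest library and WT replicate 3 the lowest, and the remaining 6 lay between 209 and 229 CPM, with the genotypes overlapping. The log2 change of 0.19 (SE 0.10) did not pass (edgeR adjusted p = 0.182). Scaled to library size alone it was 0.30 (adjusted p = 0.0426), and limma on log2(TPM + 1) gave 0.35 (adjusted p = 0.0363). In TPM the genotypes no longer overlapped, at 183 to 212 in cKO and 122 to 171 in WT.

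Gbe1 (ENSMUSG00000022707, chromosome 16, 70313949 to 70569720) encodes the branching enzyme, which moves short runs of glucose onto side branches. It had 28.6, 29.4, 40.5 and 39.6 CPM in cKO, against 17.8, 19.1, 16.1 and 23.7 CPM in WT. Every cKO library lay above every WT library, with cKO replicates 3 and 4 higher than 1 and 2. The log2 change was 0.85 (SE 0.15, edgeR adjusted p = 0.00298), which is 1.80-fold, and 20 of 20 alternative settings kept the call with log2 changes of 0.71 to 0.97. Against the synthase, Gbe1 TPM were 0.0887 ± 0.0213 of Gys2 TPM in cKO and 0.0604 ± 0.0056 in WT (mean ± SD, n = 4 each), without overlap. RSEM's effective length of Gbe1, which moves with the mix of transcripts assigned to the gene, ran from 2249 to 2624 bases in cKO and from 1868 to 2430.5 bases in WT. That range was 32.5% of the mean, the widest of the 9 genes, and allowing for it in the fit gave the lowest of those log2 changes, 0.71.

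Breakdown genes moved in both directions. Pygl (ENSMUSG00000021069, chromosome 12, 70190815 to 70227683) encodes the liver form of glycogen phosphorylase, which releases glucose from glycogen as glucose-1-phosphate. It had 184, 210.2, 257 and 239 CPM in cKO, against 151, 186, 179 and 190.0 CPM in WT. cKO replicate 1 fell within the WT libraries while the other cKO libraries lay above them. The log2 change was 0.33 (SE 0.11, edgeR adjusted p = 0.0357), a 1.26-fold rise. The call was lost without WT replicate 1 (0.27, adjusted p = 0.0957), WT replicate 2 (0.36, 0.0566), WT replicate 3 (0.34, 0.0726), cKO replicate 3 (0.27, 0.0939) or cKO replicate 4 (0.30, 0.0922), the log2 change staying above 0 each time. In TPM the genotypes did not overlap, at 83.7 to 121 in cKO and 62.0 to 78.0 in WT. The ratio of synthase to phosphorylase, Gys2 TPM over Pygl TPM, was 1.89 ± 0.28 in cKO and 2.10 ± 0.32 in WT and overlapped.

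Phka2 (ENSMUSG00000031295, chromosome X, 160501904 to 160598879) encodes the liver alpha subunit of phosphorylase kinase, a regulatory subunit through which protein kinase A acts. It had 32.6, 32.1, 37.5 and 31.97 CPM in cKO and 34.7, 33.6, 42.8 and 29.6 CPM in WT. The ranges overlapped, with WT replicate 3 highest and WT replicate 4 lowest. The log2 change of -0.07 (SE 0.10, edgeR adjusted p = 0.645) became 0.04 without WT replicate 3 and 0.04 with library size alone, so no direction can be given.

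Phkg2 (ENSMUSG00000030815, chromosome 7, 127573345 to 127583307) encodes the catalytic gamma subunit of phosphorylase kinase in liver and testis. It had 43.3, 38.6, 36.3 and 33.2 CPM in cKO, against 58.4, 53.9, 59.6 and 57 CPM in WT. Every cKO library was below every WT library, and the 4 WT libraries lay close together. The fit gave a log2 change of -0.60 (SE 0.08, edgeR adjusted p = 0.000475), and cKO livers held 66.1% of the WT level, and the call stayed in 20 of 20 alternative settings at -0.67 to -0.42. Beside the regulatory subunits, Phkg2 TPM over Phka2 TPM was 3.53 ± 0.52 in cKO and 5.05 ± 0.60 in WT, and Phkg2 TPM over Phkb TPM was 5.61 ± 0.83 in cKO and 10.8 ± 1.37 in WT, neither overlapping. Phkg2 shares 925 bases with Ccdc189, which stood at 1.85 ± 0.55 CPM in cKO and 3.18 ± 0.41 CPM in WT and was also lower (log2 change -0.78, SE 0.20, edgeR adjusted p = 0.0135). The expected counts of Phkg2 were not whole in any of the 8 libraries, whereas those of the other members were whole in all 8 within 0.005, so part of its reads was divided between genes or copies.

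The phosphatase 1 targeting subunits bring the phosphatase to glycogen, and here they did not move alike. Ppp1r3b (ENSMUSG00000046794, chromosome 8, 35375694 to 35388139), the main such subunit of liver, had 57.7, 81.9, 59.2 and 63.2 CPM in cKO and 54.1, 118, 107 and 105 CPM in WT. WT replicate 1 was the lowest library of all, below every cKO library, while WT replicates 2 to 4 lay above every cKO library. The log2 change was -0.55 (SE 0.24) and did not pass (edgeR adjusted p = 0.127). Without WT replicate 1 it was -0.75 (adjusted p = 0.00212), and DESeq2 on all libraries gave -0.55 (adjusted p = 0.0261).

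Ppp1r3c (ENSMUSG00000067279, chromosome 19, 36731731 to 36736604), also called PTG or protein targeting to glycogen, had 30.5, 24.7, 16.8 and 17.3 CPM in cKO, against 41.8, 46.1, 69.5 and 41.2 CPM in WT. All cKO libraries lay below all WT libraries, WT replicate 3 was the highest, and cKO replicates 3 and 4 were the lowest. The log2 change was -1.15 (SE 0.26, edgeR adjusted p = 0.0139), which leaves 45.0% of the WT level, the largest fall among the 9 genes. It kept its call without each library in turn, at -1.34 to -0.95. Of 20 alternatives 2 lost the call, an edgeR fit with replicate number as a block (-1.16, adjusted p = 0.0613) and the threshold of 0.01. Of Gbe1, Pygl, Phkg2 and Ppp1r3c, each had cKO replicates 3 and 4 farther from the WT mean than cKO replicates 1 and 2.

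Ppp1r3g, a further glycogen targeting subunit from the list of other phosphatase genes, moved the other way. It had 4.52, 8.73, 2.75 and 5.79 CPM in cKO, against 1.90, 1.11, 0.321 and 0.585 CPM in WT, without overlap (log2 change 2.46, SE 0.56, edgeR adjusted p = 0.0151). Per transcript length it reached 2.95 ± 1.31 TPM in cKO and 0.483 ± 0.327 TPM in WT, which is 7.62 ± 2.61% of the TPM of all targeting subunits in cKO and 1.10 ± 1.00% in WT. Ppp1r3c made up 27.4 ± 6.29% in cKO and 40.9 ± 7.65% in WT, and Ppp1r3b 50.9 ± 4.91% in cKO and 48.7 ± 7.75% in WT. The shares of Ppp1r3c and Ppp1r3b overlapped between genotypes, and so did the summed TPM of the targeting subunits, at 37.7 ± 4.68 in cKO and 50.4 ± 10.7 in WT. Ppp1r3e did not pass, at 2.77 ± 0.30 CPM in cKO and 2.98 ± 0.55 CPM in WT (log2 change -0.10, edgeR adjusted p = 0.657). In TPM, which carry no TMM scaling, its means lay the other way, at 5.03 ± 0.55 in cKO and 4.49 ± 1.09 in WT.

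**Figure D2:**
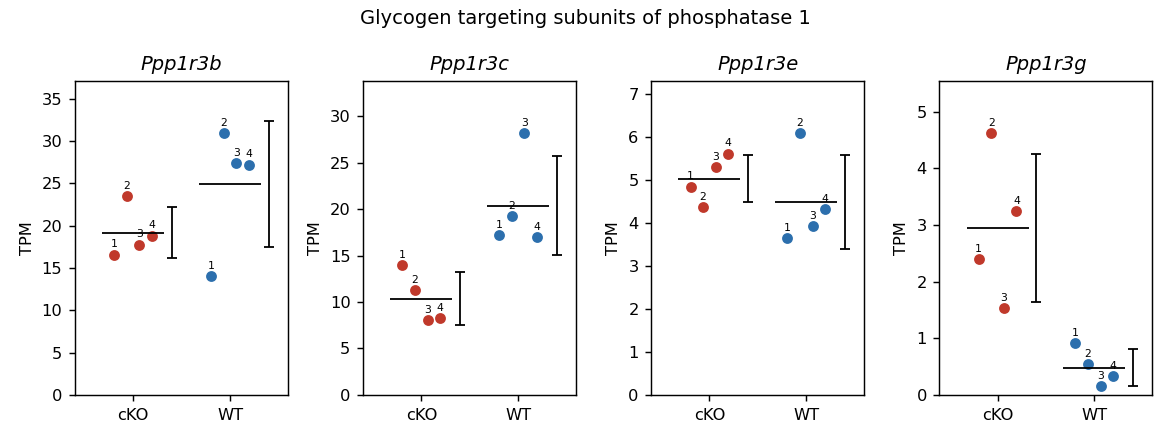
TPM of the 4 targeting subunits above 1 TPM in either genotype, by library, cKO in red and WT in blue, with means and 1 SD (n = 4 each) and replicate numbers. Ppp1r3c lies lower and Ppp1r3g higher in every cKO library, each panel on its own scale.

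Set side by side per transcript length, the 9 genes spanned 3.53 to 192 TPM in cKO and 2.73 to 151 TPM in WT. The order in cKO was Gys2 at 192 ± 13.8, Ugp2 at 112 ± 10.1, Pygl at 103 ± 16.9, Phkg2 at 39.0 ± 3.51, Ppp1r3b at 19.2 ± 3.02, Gbe1 at 16.99 ± 3.87, Phka2 at 11.1 ± 1.33, Ppp1r3c at 10.4 ± 2.81 and Gyg at 3.53 ± 0.14 TPM (mean ± SD, n = 4). In WT it was Gys2 at 151 ± 21.0, Ugp2 at 92.0 ± 12.5, Pygl at 72.3 ± 7.35, Phkg2 at 52.5 ± 2.38, Ppp1r3b at 24.9 ± 7.45, Ppp1r3c at 20.4 ± 5.28, Phka2 at 10.5 ± 1.66, Gbe1 at 9.11 ± 1.32 and Gyg at 2.73 ± 0.14 TPM (mean ± SD, n = 4). Neighbours with overlapping libraries were Ugp2 and Pygl, Ppp1r3b and Gbe1, and Phka2 and Ppp1r3c in cKO, and Ppp1r3b and Ppp1r3c, and Phka2 and Gbe1 in WT. Gbe1 stood sixth in cKO and eighth in WT, and Ppp1r3c eighth in cKO and sixth in WT. Gys2 lay above 97.6% of the genes with any TPM in cKO and above 97.2% in WT, whereas Gyg lay above 66.6% in cKO and 64.3% in WT.

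**Figure D3:**
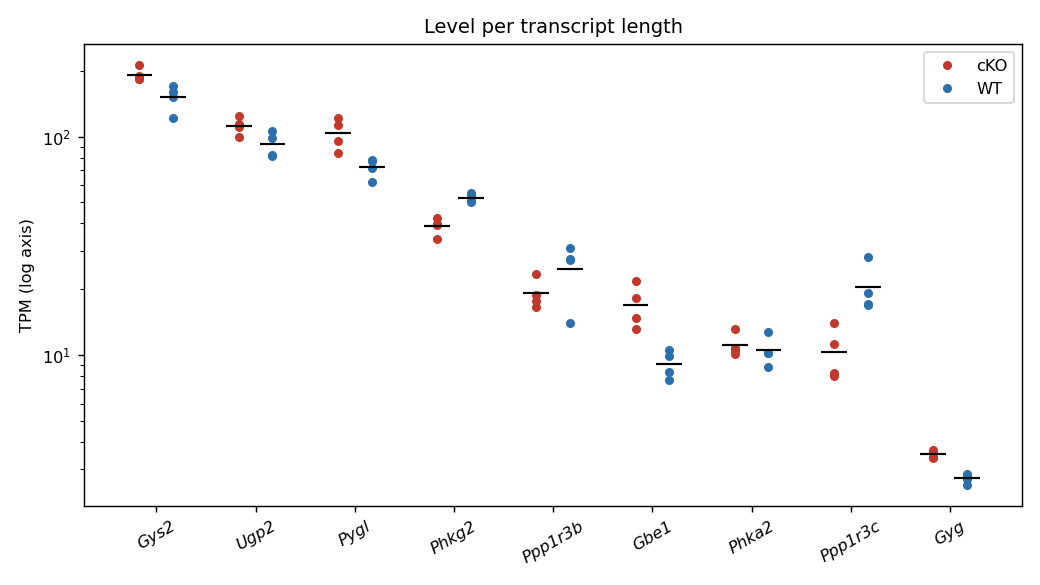
Level per transcript length (TPM, log axis) of the 9 genes in each library, ordered by their cKO mean, cKO in red to the left of WT in blue, with lines at the means of 4 libraries. Gys2 leads and Gyg is lowest in both genotypes, and Gbe1 and Ppp1r3c change places.

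Liver forms made up most of the TPM of their enzyme families in both genotypes, with the lowest share for Phka2. Gys2 held 99.4 ± 0.09% of the TPM of Gys1 and Gys2 in cKO and 99.1 ± 0.15% in WT, a difference of 0.305 points without overlap (exact two-sided permutation test over 70 assignments, p = 0.0286, the smallest possible, adjusted p = 0.114 over 4 shares). Pygl held 96.9 ± 0.79% of the phosphorylases in cKO and 97.5 ± 0.67% in WT (exact permutation test, adjusted p = 0.305). Phka2 held 90.4 ± 1.47% of the alpha subunits in cKO and 90.3 ± 0.63% in WT (exact permutation test, adjusted p = 0.914). For Phkg2 the share of the gamma subunits was 99.8 ± 0.14% in cKO and 99.9 ± 0.04% in WT (exact permutation test, adjusted p = 0.286). Effective lengths differed in none of the 9 genes beyond the threshold (exact two-sided permutation tests, p 0.0857 to 0.771, adjusted p 0.343 to 0.771). With 0.0286 as the smallest possible p, a shift in 1 gene alone could not have passed after adjustment over 9 genes. The same holds for 1 share alone among the 4. These tests therefore cannot decide on shifts in single genes or shares.

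Other enzymes of the pathway also went in both directions: of 12 reported, 11 were tested, 3 were higher and 1 lower, with a median log2 change of 0.07. Among all tested genes 15.2% were higher and 14.9% lower. Pygb, the brain form of phosphorylase, had 5.65 ± 0.89 CPM in cKO and 2.96 ± 0.42 CPM in WT (mean ± SD, n = 4 each; log2 change 0.93, SE 0.15, edgeR adjusted p = 0.0011). A gene listed as Pgm1, which RefSeq now calls Pgm2, of the phosphoglucomutase family, had 3.35 ± 0.36 CPM in cKO and 1.68 ± 0.27 CPM in WT (log2 change 0.99, SE 0.15, edgeR adjusted p = 0.000957). Both were low beside Pygl, and neither overlapped between genotypes. The main phosphoglucomutase, listed as Pgm2 and called Pgm1 by RefSeq, had 189.8 ± 19.2 CPM in cKO and 191 ± 11.7 CPM in WT, with a log2 change of -0.01 whose sign depended on the scaling and on single libraries. Phkb, the beta subunit of phosphorylase kinase, rose by a log2 change of 0.33 at an edgeR adjusted p of 0.0225, a call lost without WT replicate 2 or 3 or cKO replicate 2 or 4 (adjusted p 0.0517 to 0.0679). Gys1, the synthase form of muscle and other tissues, fell to 2.84 ± 0.25 CPM in cKO, against 3.68 ± 0.29 CPM in WT (log2 change -0.37, edgeR adjusted p = 0.0407). The Gys1 call was lost without any 1 of WT replicates 2 to 4 or cKO replicates 2 to 4 (adjusted p 0.0770 to 0.106). It was also lost with library size alone (-0.27, adjusted p = 0.125) or without the 20 most abundant genes (0.101), without a filter (0.106), in both TPM fits (0.219 and 0.223) and in edgeR with replicate number as a block (0.0622).

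The catalytic subunits of protein phosphatase 1 were higher in cKO. Of the 8 listed phosphatase genes 6 were tested, 4 were higher, and the other 2, Ppp1r3d and Ppp1r3e, did not pass, with a median log2 change of 0.39 over the 6. Among all tested genes 15.2% were higher and 14.9% lower. Ppp1ca had 127 ± 7.69 CPM in cKO and 99.6 ± 5.25 CPM in WT, and Ppp1cc 84.8 ± 5.76 CPM in cKO and 66.3 ± 3.87 CPM in WT. Ppp1cb had 38.4 ± 4.41 CPM in cKO and 24.0 ± 6.07 CPM in WT. Their log2 changes were 0.35, 0.36 and 0.68 (edgeR adjusted p = 0.00401, 0.00418 and 0.0151), and in each the genotypes did not overlap. The fourth was Ppp1r3g.

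Of 19 kinases and hormone receptors that act on glycogen, 5 were higher and 3 lower, with a median log2 change of 0.04, where 30.1% of all tested genes passed in either direction. Gcgr, the glucagon receptor, fell to 405 ± 24.2 CPM in cKO, against 574 ± 21.4 CPM in WT (log2 change -0.50, SE 0.07, edgeR adjusted p = 0.000602). The alpha-1B adrenergic receptor Adra1b fell to 28.5 ± 3.50 CPM in cKO, against 42.9 ± 6.02 CPM in WT (log2 change -0.59, SE 0.11, edgeR adjusted p = 0.00295). For both receptors every cKO library was below every WT library. Prkaa2, a catalytic subunit of AMP-activated kinase, rose to 32.2 ± 4.45 CPM in cKO, against 20.6 ± 2.67 CPM in WT (log2 change 0.65, edgeR adjusted p = 0.00222). Calmodulin, which is also the delta subunit of phosphorylase kinase, is made by several genes, of which Calm2 and Calm3 each rose with a log2 change of 0.43 (edgeR adjusted p = 0.00607 and 0.0023). Prkar2a, a regulatory subunit of protein kinase A, rose with a log2 change of 0.44 (edgeR adjusted p = 0.00422). Prkar1a, another such subunit, passed at 0.21 (edgeR adjusted p = 0.0418) and lost its call without any 1 of WT replicates 1 to 3 or cKO replicates 2 to 4 (adjusted p 0.0508 to 0.115), without a filter (0.0527) and with an offset for effective length (0.0620). Prkab1, a regulatory subunit of AMP-activated kinase, passed at -0.26 (edgeR adjusted p = 0.0385) and lost its call without WT replicate 1 or 3 or any 1 cKO replicate (adjusted p 0.0533 to 0.121), with library size alone (-0.15, adjusted p = 0.210) or without the 20 most abundant genes (0.157) and in both TPM fits (0.376 and 0.374).

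Among genes that let glucose in and out of the glycogen pool, those of glucose release and transport were higher. Of 6 tested, 3 were higher and 1 lower, with a median log2 change of 0.47. Slc37a4, which carries glucose-6-phosphate to the glucose-releasing enzyme, rose to 346 ± 61.6 CPM in cKO, against 232 ± 28.6 CPM in WT (log2 change 0.57, SE 0.13, edgeR adjusted p = 0.00722). G6pc, the enzyme that releases free glucose, had 328, 575, 321 and 435 CPM in cKO, against 288, 161, 257 and 221 CPM in WT, without overlap (log2 change 0.84, SE 0.24, edgeR adjusted p = 0.0316). The G6pc call was lost without WT replicate 3 or 4 or cKO replicate 4 (adjusted p 0.0623 to 0.0884). It was also lost without a filter on low counts (adjusted p = 0.0899) and in edgeR with replicate number as a block (adjusted p = 0.151). Slc2a2, the glucose transporter of hepatocytes, rose to 144 ± 36.7 CPM in cKO, against 95.3 ± 7.53 CPM in WT (log2 change 0.60, edgeR adjusted p = 0.0226), a call lost without WT replicate 2 or 3 or cKO replicate 3 (adjusted p 0.0531 to 0.0653), without a filter (0.0635) and with an offset for effective length (0.0586). Gckr passed at -0.44 (edgeR adjusted p = 0.0288), with overlapping genotypes, and lost its call without any 1 of WT replicates 1 to 3 or cKO replicates 3 and 4 (adjusted p 0.0564 to 0.0843), with library size alone (-0.33, adjusted p = 0.0761) or without the 20 most abundant genes (0.0835) and in both TPM fits (0.240 and 0.239). Over the 42 tested genes of these 4 lists together, 15 were higher and 5 lower, with a median log2 change of 0.14, where 15.2% of all tested genes were higher and 14.9% lower. The lists were chosen with earlier results of these data known, and list genes not reported here are left out of the counts. With library size alone the calls over all genes lay mostly on the higher side, as given above.

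**Figure D4:**
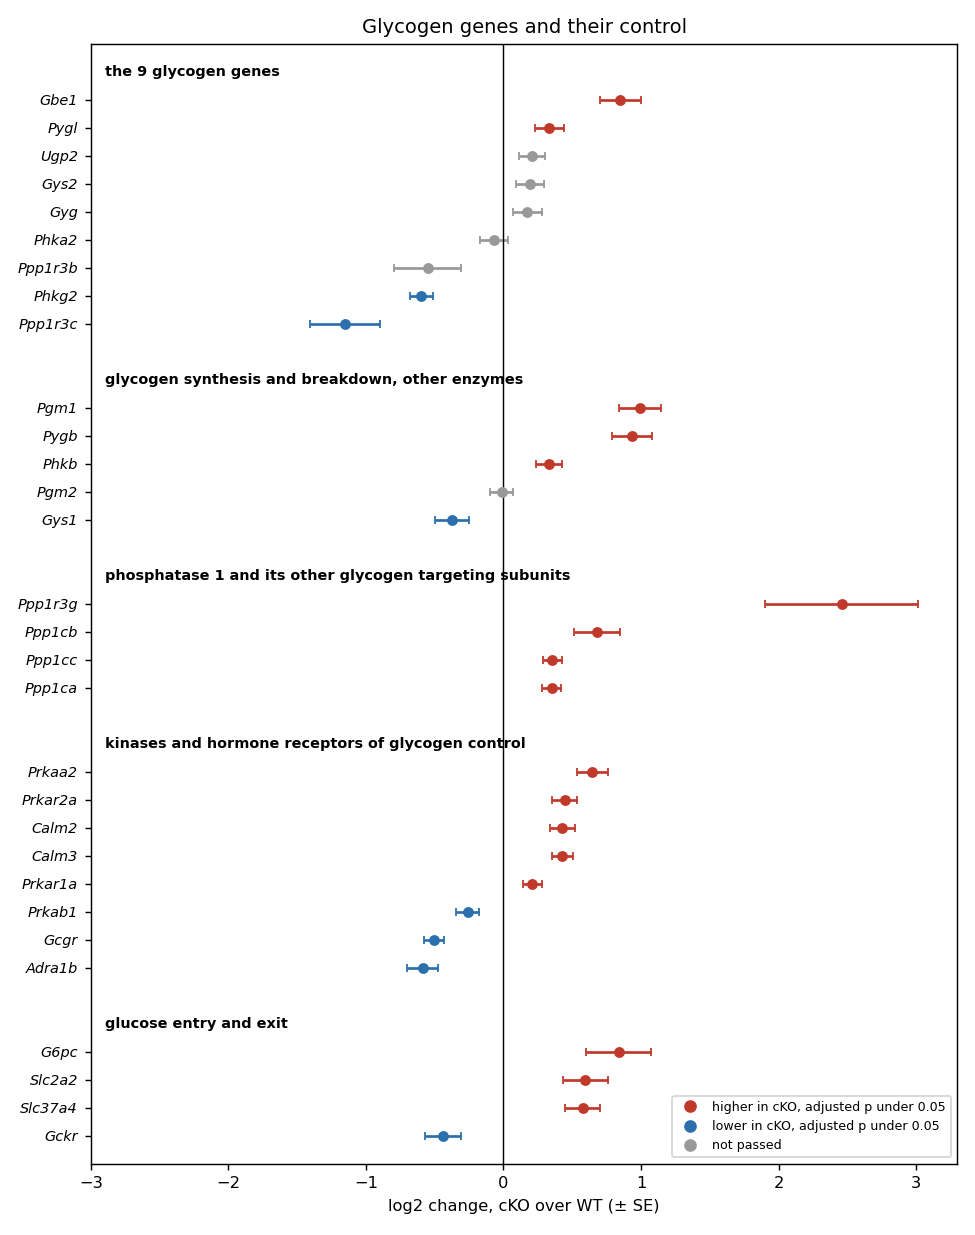
Log2 change, cKO over WT, with its standard error, from the edgeR fit over all tested genes. Shown are the 9 glycogen genes, the genes of the 4 further lists that passed, and the gene listed as Pgm2. Other named genes of those lists that did not pass are not plotted. Red marks genes higher and blue genes lower in cKO at an adjusted p under 0.05, and grey those that did not pass. Ppp1r3g at 2.46 and Ppp1r3c at -1.15 are the ends of the plot. Pgm1 and Pgm2 are named as in the files.

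Some genes that respond to feeding or to the clock also differed. Of 11 feeding and fasting genes 3 were higher and 1 lower in cKO: Igfbp1 (log2 change 1.72), Pdk4 (1.67) and Cpt1a (0.44) rose, and Srebf1 (-0.89) fell. Of 13 clock genes 1 was higher, Nr1d2 (0.24), and 4 were lower, Nr1d1 (-1.03), Dbp (-0.41), Tef (-0.32) and Cry2 (-0.24), all by edgeR at an adjusted p under 0.05. Nr1d1 (edgeR adjusted p = 0.0488) and Nr1d2 (0.0417) passed narrowly and overlapped between genotypes in CPM. The other 7 feeding and fasting genes and the other 8 clock genes did not pass, where 30.1% of all tested genes passed. The part of feeding state, of time of day and of the stellate and leukocyte marker levels in the changes of the glycogen genes was not tested.

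Genes with the pattern most like that of the largest rise and the largest fall among the 9 were taken by the smallest root mean square difference of centred log2 CPM over the 8 libraries, among 9138 genes of at least 5 CPM. For Gbe1 they were Cxadr at 0.101, Tgfbr2 at 0.103 and Olfml1 at 0.115, against a median of 0.502 over all those genes. For Ppp1r3c they were 9430064I24Rik at 0.170, Insig1 at 0.183 and the pseudogene Cyp2d37-ps at 0.194, against a median of 0.674. Because the smallest differences were picked, they lie below these medians by construction.

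**Figure D5:**
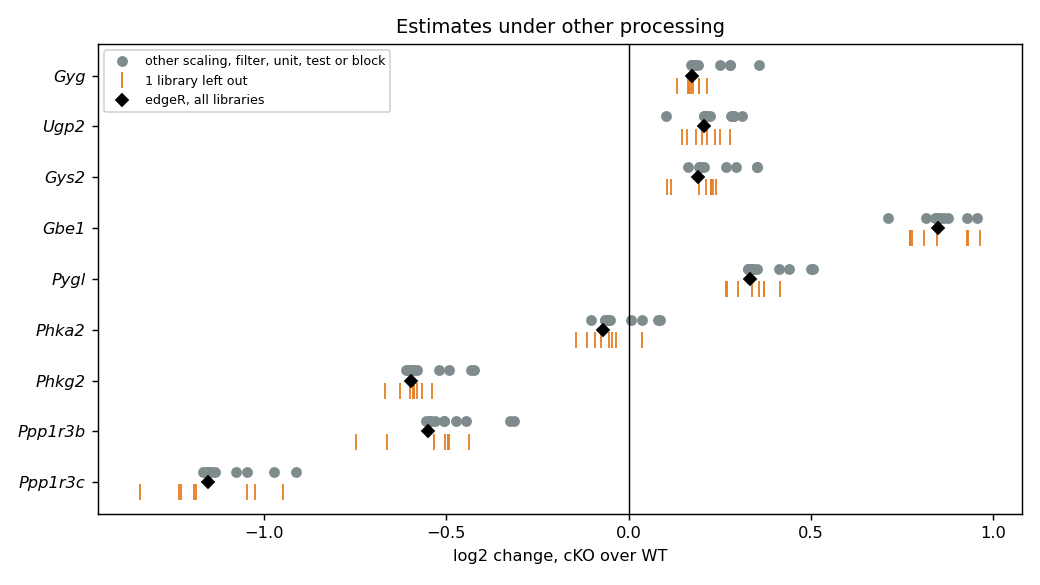
Log2 change of the 9 genes, cKO over WT, in the edgeR fit of all libraries (diamonds), under other scalings, filters, units, tests or the replicate block (grey points) and with 1 library left out (orange ticks). Gbe1 and Phkg2 kept both their side of 0 and their call in all 20 alternatives, Phka2 crosses 0, and the other 6 keep their side.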

How the data were processed

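RNA of whole liver was sequenced in 8 samples, 4 cKO and 4 WT. Frozen livers, Trizol and an Illumina TruSeq RNA kit were used, per the labels' protocols. Per the submitters' processing notes, the authors used STAR 2.5.1 and RSEM with mm10; which RSEM version, annotation and strand setting were used is not given in the sources used here. Per gene, the deposited expected counts are RSEM estimates, not always whole because shared reads are divided. Effective lengths (per the file headers) and TPM, which the authors scaled for length and to the same total in every library, stand beside them; FPKM were not used. The labels do not say that each sample is a separate mouse, so p-values reflect only the spread among these samples, which may be technical.

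Expected counts were rounded, genes were kept with filterByExpr by genotype (minimum count 10, minimum total 15), libraries were scaled by TMM, and cKO was tested against WT in edgeR 4.0.16 under R 4.3.3 (estimateDisp, robust glmQLFit, glmQLFTest) with Benjamini-Hochberg adjustment over 15562 genes at 0.05. Shares and effective lengths were compared by exact permutation over 70 assignments. On counts simulated for cKO against WT over 15372 genes, the test found 71.6% of the 67 genes given a 1.5-fold change, 94.0% of the 67 given a 2-fold change and all 66 given a 4-fold change, and 3.80% of its calls were unchanged genes. Only 200 genes were changed there, with random signs and none among the genes of lowest mean CPM, whereas 30.1% of the tested genes were called in the data. Whether the simulated rates hold for these libraries was not tested. Libraries of one genotype differed by more than sampling noise, with a chi-square of at least 28.4 per degree of freedom, and were each counted once.

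The 9 genes, the further lists, the motifs and the naming rule were chosen with earlier results of these data known. The rule names the 9 genes, list genes that passed or had the 4 smallest p of their list, and the 3 genes nearest in pattern to the largest rise and the largest fall; the gene listed as Pgm2, Ppp1r3d, Ppp1r3e, the overlapping genes Ccdc189 and Vps54, and the context genes were named after their values were seen. Positions and promoters are RefSeq's for GRCm38.p6; the genome sequence at hand was another build and was not used. The symbol Tf was not matched, so 11 of 12 hepatocyte markers were used. Some further list genes are not reported here and enter no list count. Alternatives were run with limma 3.58.1 and DESeq2 1.42.0, and plots were made with Python 3.11.15 and matplotlib 3.10.9.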

Additional observations from a re-analysis of the deposited data

Results flagged for a closer look

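Of 86 groups of 4 libraries checked by Dixon's gap test, 4 (4.65%) held a library whose gap to the nearest other, divided by the range of the group, passed the critical value for 4 samples, which chance does in about 1 group in 20. Gys2 had 274.4 CPM in cKO replicate 4, where the other cKO libraries had 222.9 to 227.8 CPM (ratio 0.905). Phka2 had 37.45 CPM in cKO replicate 3, where the other cKO libraries had 31.97 to 32.62 CPM (ratio 0.881). Gys1 had 3.216 CPM in cKO replicate 1, where the other cKO libraries had 2.698 to 2.761 CPM (ratio 0.879). The effective length of Gyg was 1496 bases in WT replicate 3, where the other WT libraries had 1517 to 1520.0 bases (ratio 0.895). WT replicate 1 of Ppp1r3b, whose removal gave a call, had a ratio of 0.803 and did not reach the critical value.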

How the results depend on the processing

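In 20 alternatives, Gbe1 and Phkg2 kept direction and call, and Pygl lost its call in 6, Ppp1r3c in 2. The number of genes higher and lower in cKO was 3604 and 1318 with library size alone, 3194 and 1425 without the 20 most abundant genes in that size, 3553 and 789 with limma on log2(TPM + 1), 3555 and 802 with log2(TPM + 0.1), and 1165 and 1050 at an adjusted p under 0.01, against 2367 and 2322. Library size alone moved the median log2 change of all genes to 0.10 and log2(TPM + 0.1) to 0.14, against -0.01 with TMM. Of the 9 genes, 4 were called higher with library size alone and in both TPM fits, 1 at an adjusted p under 0.01, and 1 to 2 with each library left out. At that threshold 1 was called lower. Phka2's log2 change was 0.038 with library size alone, 0.0070 without the 20 most abundant genes, 0.080 and 0.087 with log2(TPM + 1) and log2(TPM + 0.1), and -0.14 to 0.038 with each library left out. In the same 4 settings the gene listed as Pgm2 had 0.093, 0.065, 0.17 and 0.17, with 0.0055 without a filter and -0.084 to 0.038 with each library left out. Leaving out each library gave a Phka2 share difference of -0.539 to 0.641 points, and effective length differences of -1.02 to 15.8 bases for Pygl, -1.88 to 22.4 for Phkg2, -4.39 to 0.0367 for Ppp1r3c and -6.54 to 49.4 for Gys2. Libraries with the same replicate number were not treated as pairs, because the correlations of their deviations stayed under a set threshold of 0.1. They were 0.0417 to 0.0567 for the 4 pairs and -0.104 to 0.0921 for others. In each genotype 3 of 4 libraries correlated best with their own number, a hint of pairing from the data only, so pairing is not excluded. With the replicate block 2 of the 9 genes were called higher and 1 lower, as Ppp1r3c had an adjusted p of 0.0613 at a log2 change of -1.16. Of the further genes named, G6pc had 0.82 (adjusted p = 0.151) and Gys1 -0.37 (adjusted p = 0.0622) with that block. Over all genes it called 2525 and 2419. The causes of these shifts were not tested. Gyg had the fewest counts of the 9 genes, at 154 to 268 per library, and Gys2 had 7461 to 16104.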

Other observations

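The route by which glycogen is tethered and degraded in lysosomes, and the enzyme that removes phosphate from it, showed no change that passed the test. Stbd1, which binds glycogen to membranes, had 92.3 ± 12.8 CPM in cKO and 87.7 ± 13.3 CPM in WT (mean ± SD, n = 4 each; log2 change 0.07, edgeR adjusted p = 0.670). Gaa, the lysosomal glucosidase that digests glycogen, had 100.5 ± 9.66 CPM in cKO and 112 ± 9.25 CPM in WT (log2 change -0.15, edgeR adjusted p = 0.205). Epm2a, the glycogen phosphatase laforin, had 2.41 ± 0.26 CPM in cKO and 1.78 ± 0.42 CPM in WT (log2 change 0.44, edgeR adjusted p = 0.0851). All 3 overlapped between genotypes. The 9 glycogen genes summed to 778 to 912 CPM in cKO and 732 to 869 CPM in WT, so their total also overlapped while single genes moved in opposite directions.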
